A study of Mus musculus with 5 samples.

Results

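The genes described here are 9 matrix metalloproteinases, Mmp2, Mmp3, Mmp7, Mmp9, Mmp10, Mmp12, Mmp13, Mmp14 and Mmp15, and the inhibitor gene Timp1, in RNA-Seq of mouse colon tumors. They were taken by symbol from a table of 52143 mouse genes, in which each of the 10 symbols occurred in 1 row. Levels are given as log2(TPM + 1), with TPM an abundance relative both to all RNA of the sample and to transcript length. All mice were females, 8 weeks old when tamoxifen began. They carried Villin1-Cre-ERT, a Cre recombinase driven by the villin promoter of intestinal epithelium and active after tamoxifen. The SIGLEC12 mice carried in addition 1 copy of a knock-in of human SIGLEC12 at ROSA26, behind a CAG promoter and an EGFP stop cassette that the recombinase removes, and the Control mice were littermates with the recombinase alone. Each mouse received tamoxifen (5 days, 10 mg/mL), azoxymethane (a carcinogen, 10 mg/kg) and 4 cycles of dextran sulfate sodium (an agent that injures colon epithelium, 2.0% for 5 days, then 14 days of recovery), and tumors were taken on day 87. Control had 2 samples, numbered 1 and 4, and SIGLEC12 had 3, numbered 2, 3 and 4. The human transgene was not analysed here, so the genotype labels have no check from its RNA.

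Matrix metalloproteinases are zinc-dependent endopeptidases that cleave collagens, laminins, elastin and other proteins outside the cell. Most are secreted as inactive proenzymes, some are anchored in the plasma membrane, and tissue inhibitors such as TIMP1 block the active site. In the intestine they are known from wound repair, colitis and tumor invasion, and different members are made by epithelial cells, fibroblasts and leukocytes.

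Control replicate 1 stood apart from the other 4 samples. A list of 7 squamous epithelium markers, led by the keratin genes Krt14 and Krt13, summed to 2629 TPM in Control replicate 1 and to 447 in Control replicate 4, against 297 to 736 in the SIGLEC12 samples. For 8 markers of columnar epithelium, the cell type that lines the colon, the sum was 304 TPM in Control replicate 1, 889 in Control replicate 4 and 1062 to 1683 in the SIGLEC12 samples. Protein-coding genes held 5.695% and 6.73% of the TPM in the Control samples and 8.742% to 9.709% in the SIGLEC12 samples. The median difference of 10338 tested genes was 0.38 (log2) as deposited, and it was 0.01 after each sample was rescaled to the same protein-coding total. Each member's difference is therefore given as deposited, after that rescaling, and against Control replicate 4 alone.

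All 10 genes had a higher mean in the SIGLEC12 samples, both as deposited and after rescaling, and each had its lowest value in Control replicate 1. The mean was also higher for 87.2% of all tested genes as deposited and for 51.1% after rescaling. The median difference over the 10 genes was 0.82 on the log2 scale as deposited and 0.53 after rescaling. The largest differences were in Mmp7, Mmp10 and Mmp13, at 2.40, 2.07 and 2.01. With limma and Benjamini-Hochberg adjustment over all tested genes, 0 of the 8 genes that could be tested passed an adjusted p of 0.05 with at least 2-fold change, and 0 of all 10338 did (0%). At an unadjusted limma p under 0.05, 5 of the 8 were higher (Mmp7, Mmp10, Mmp13, Mmp14 and Timp1), beside 33.4% of all tested genes. After rescaling 2 were (Mmp10 and Mmp13), beside 4.46%. Of the 8, Mmp2, Mmp12 and Timp1 could be tested only through their SIGLEC12 samples, which favors a higher value there. In bulk tissue, fewer cells of a type and less RNA per cell cannot be told apart.

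**Figure D1:**
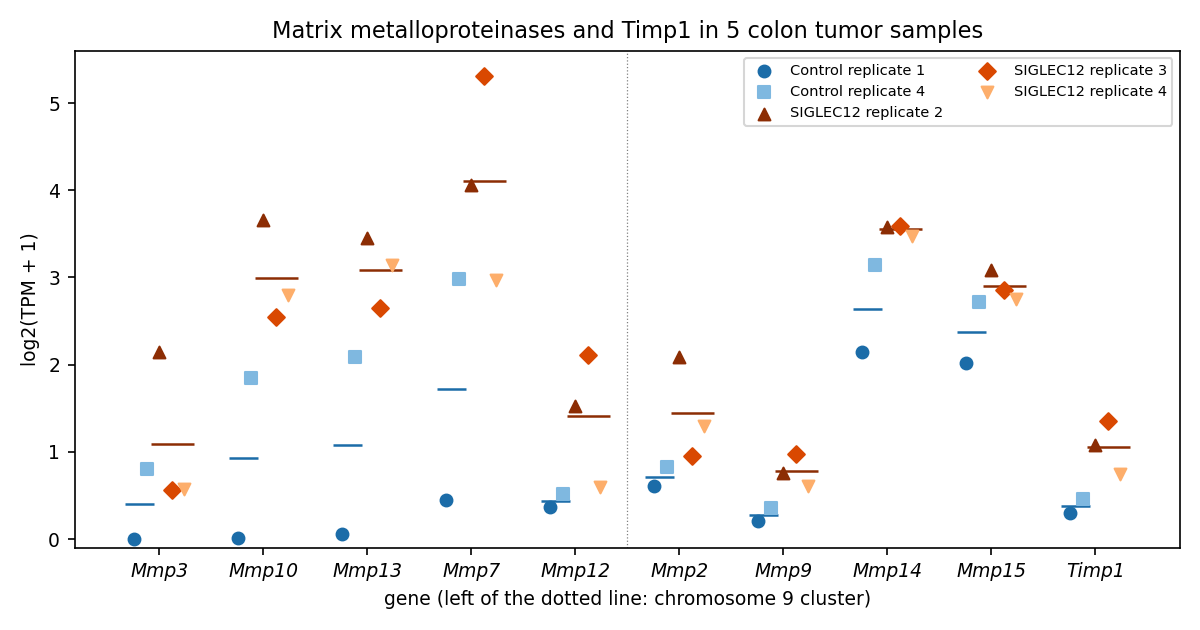
Level of the 10 genes in each sample. The y axis is log2(TPM + 1), each point is 1 sample (blue, Control; brown to orange, SIGLEC12), and horizontal lines are group means; Mmp7, Mmp10 and Mmp13 span the widest ranges, from 0.45, 0.01 and 0.06 in Control replicate 1 to 5.31, 3.65 and 3.45.

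Of the 10 genes, 5 lay in 1 cluster on chromosome 9, with Mmp13, Mmp12, Mmp3, Mmp10 and Mmp7 in that order within 427.1 kb (GRCm38, chromosome 9, 7272514 to 7699585, GENCODE M21), all on the plus strand. The 80 bases before the start site of each are shown because this group held the largest differences, and because activator protein 1 (AP-1), a dimer of Fos and Jun proteins, is a well-known regulator of metalloproteinase genes. RefSeq promoters (GRCm38.p6) were found for 8 of the 10 genes, with 10 start sites, and not for Mmp2 and Mmp9. Capitals mark the AP-1 letters TGAGTCA or, on the other strand, TGACTCA, and the TATA box letters TATAAA. For Mmp12 the second listed start site is shown, the only one of its 2 with the AP-1 letters. For Mmp7 the first is shown, also the only one of its 2 with these letters.
Mmp13: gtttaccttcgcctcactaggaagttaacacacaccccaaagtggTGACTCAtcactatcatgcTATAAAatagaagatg
Mmp12: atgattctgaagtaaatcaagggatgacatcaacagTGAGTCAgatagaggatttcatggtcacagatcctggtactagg
Mmp3: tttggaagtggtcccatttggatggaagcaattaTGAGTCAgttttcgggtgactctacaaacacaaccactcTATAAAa
Mmp10: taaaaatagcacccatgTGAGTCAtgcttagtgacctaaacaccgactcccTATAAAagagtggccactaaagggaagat
Mmp7: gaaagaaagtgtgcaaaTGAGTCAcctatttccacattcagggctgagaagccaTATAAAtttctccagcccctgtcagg
The windows were chr9:7272434-7272513 for Mmp13, chr9:7347294-7347373 for Mmp12, chr9:7445742-7445821 for Mmp3, chr9:7502262-7502341 for Mmp10 and chr9:7692010-7692089 for Mmp7, all on the plus strand. The AP-1 letters began 35 bases before the start site in Mmp13, 44 in Mmp12, 46 in Mmp3, and 63 in both Mmp10 and Mmp7. Within 250 bases before the start site, 4.463% of 32851 RefSeq promoters held these letters on either strand, 12.368% held TATAAA or its reverse TTTATA, and 0.721% held both. These shares count every promoter, whereas 1 start site per gene is shown here, so the 2 are not like for like.

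The 3 members outside the cluster with a listed promoter are shown for contrast, since neither set of letters occurred in this stretch, and the AP-1 letters were not in their 250-base windows.
Mmp14: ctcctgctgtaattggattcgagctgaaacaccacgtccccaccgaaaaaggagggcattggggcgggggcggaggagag
Mmp15: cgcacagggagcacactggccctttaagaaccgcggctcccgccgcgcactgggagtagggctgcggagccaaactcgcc
Timp1: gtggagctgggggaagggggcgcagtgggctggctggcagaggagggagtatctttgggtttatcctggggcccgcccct
These lay at chr14:54431518-54431597, chr8:95352216-95352295 and chrX:20870086-20870165, on the plus strand. A match describes letters and is neither a binding site nor a cause, and the lack of a match says only that these letters are not in this window.

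The stromelysins Mmp3 (ENSMUSG00000043613) and Mmp10 (ENSMUSG00000047562) cleave proteoglycans, laminin and fibronectin and can activate other proenzymes. Mmp10 (chromosome 9, 7502352 to 7510240) was at log2(TPM + 1) of 0.01 and 1.85 in Control replicates 1 and 4 and 3.65, 2.55 and 2.80 in SIGLEC12 replicates 2, 3 and 4. It was almost undetected in Control replicate 1, and every SIGLEC12 sample lay above both Control samples. Control averaged 0.93 ± 1.30 (SD, n = 2) while SIGLEC12 averaged 2.999 ± 0.58 (SD, n = 3). The difference was 2.07 (SE 0.57, limma adjusted p = 0.0974), or 5.69-fold in mean TPM, with the samples still apart after rescaling at 1.81. Against Control replicate 4 alone it was 1.15. The exact permutation test over samples gave p = 0.1 with and without rescaling, the smallest it can give for 2 against 3 samples.

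Mmp3 (chromosome 9, 7445822 to 7455975) was at 0.01 and 0.80 in the Control samples and 2.15, 0.57 and 0.57 in the SIGLEC12 samples. Only SIGLEC12 replicate 2 was well above the rest, and the groups overlapped. Since 1 sample alone reached TPM 1, the gene was not tested by limma; the means differed by 0.69 (exact permutation p = 0.6), by 0.55 once rescaled and by 0.29 from Control replicate 4 alone.

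Mmp13 (ENSMUSG00000050578, chromosome 9, 7272514 to 7283331) encodes a collagenase that cuts fibrillar collagen. Its values were 0.06 and 2.09 in Control replicates 1 and 4 and 3.45, 2.65 and 3.15 in the SIGLEC12 samples. As with Mmp10, Control replicate 1 was near 0 and all SIGLEC12 samples were above both Control samples. SIGLEC12 averaged 3.08 ± 0.41 (SD, n = 3) against 1.07 ± 1.44 (SD, n = 2), and this difference of 2.01 (SE 0.58) missed the threshold at a limma adjusted p of 0.0980. It was 1.73 after rescaling, with the groups still apart, and 0.99 against Control replicate 4 alone (exact permutation p = 0.1 as deposited and rescaled).

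Mmp7 (ENSMUSG00000018623, chromosome 9, 7692090 to 7699585) encodes matrilysin, a small protease made by epithelial cells, including Paneth cells, where it activates defensins. The 2 Control samples held 0.45 and 2.98, and the SIGLEC12 samples 4.06, 5.31 and 2.97. SIGLEC12 replicate 3 had the highest level of any member in any sample, whereas SIGLEC12 replicate 4 lay just under Control replicate 4, so that the groups overlapped by 0.01. Its means of 1.72 ± 1.79 (SD, n = 2) and 4.11 ± 1.17 (SD, n = 3) gave the largest difference of the 10 genes, 2.40 (SE 0.89, limma adjusted p = 0.123), with p = 0.3 by exact permutation. Rescaled it was 2.04 and 1.13 against Control replicate 4 alone. The antisense RNA AV064505 overlaps Mmp7, and whether strand was used in the quantification is not stated.

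Mmp12 (ENSMUSG00000049723, chromosome 9, 7344381 to 7369499) encodes the elastase of macrophages. It was at 0.37 and 0.51 in Control and at 1.53, 2.11 and 0.60 in SIGLEC12. Replicates 2 and 3 of SIGLEC12 were high, and SIGLEC12 replicate 4 lay only 0.08 above the higher Control sample. Summed over 8 macrophage markers, TPM was 9.85 and 4.78 in Control and 20.6, 23.2 and 5.83 in SIGLEC12, high in the same replicates 2 and 3; their part in the result was not tested. The difference in Mmp12 was 0.97 (SE 0.42, limma adjusted p = 0.153), and the exact permutation test gave p = 0.2. Rescaled values differed by 0.78 and overlapped, and against Control replicate 4 alone the difference was 0.90. The gene overlaps Mmp1b on the other strand, and it passed the filter only through SIGLEC12 samples.

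The gelatinases Mmp2 and Mmp9 cleave denatured collagen and the type IV collagen of basement membranes. Mmp2 (ENSMUSG00000031740, chromosome 8, 92827291 to 92853420), chiefly a product of fibroblasts, was at 0.60 and 0.82 in Control and 2.09, 0.96 and 1.30 in SIGLEC12. SIGLEC12 replicate 2 was highest, and the groups did not overlap. The 8 fibroblast markers had the same highest sample, with summed TPM of 7.66 and 8.98 in Control and 35.8, 15.6 and 17.7 in SIGLEC12; whether these cells contribute was not tested. The difference in Mmp2 was 0.73 (SE 0.33, limma adjusted p = 0.168), with p = 0.2 by exact permutation. It was 0.63 against Control replicate 4 alone and 0.47 with overlapping groups once rescaled. Mmp2 passed the filter only through SIGLEC12 samples.

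Mmp9 (ENSMUSG00000017737, chromosome 2, 164940780 to 164955850), known from neutrophils and macrophages, had the lowest mean of the 10 genes in both groups, though not the lowest value in every sample. It was at 0.20 and 0.36 in Control and 0.76, 0.98 and 0.61 in SIGLEC12, always under TPM 1, and was therefore not tested by limma. The groups did not overlap, and the means differed by 0.50 (exact permutation p = 0.1). Rescaling gave 0.37, still without overlap, and Control replicate 4 alone gave 0.43. For 6 neutrophil markers the summed TPM was 21.8 and 25.3 in Control and 24.8, 46.0 and 53.9 in SIGLEC12. Most of the sum in SIGLEC12 replicate 4 came from 1 marker, Ly6g (44.8 TPM). By contrast, S100a8, S100a9, Csf3r and Retnlg were highest in SIGLEC12 replicate 3, as Mmp9 was. In Control replicate 1, where Mmp9 was lowest, S100a8, S100a9 and Csf3r had their second highest values (9.99, 5.73 and 0.97 TPM). Cxcr2 was highest in that sample (0.59 TPM), while Ly6g and Retnlg were lowest in it. The part of these neutrophil markers in the result was not tested.

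The membrane-anchored members had the highest mean levels in Control. Mmp14 (ENSMUSG00000000957, chromosome 14, 54431612 to 54445364) cuts fibrillar collagen at the cell surface and activates the proenzyme of MMP2. It was at 2.14 and 3.14 in Control and 3.58, 3.60 and 3.48 in SIGLEC12. The SIGLEC12 samples spanned 0.12 and lay above both Control samples. The difference was 0.91 (SE 0.31, limma adjusted p = 0.110), at the smallest exact permutation p = 0.1. Rescaled it was 0.43, when the groups overlapped, and it was 0.41 against Control replicate 4 alone.

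Mmp15 (ENSMUSG00000031790, chromosome 8, 95352268 to 95375080), the other membrane-type member, was at 2.02 and 2.72 in Control and 3.09, 2.86 and 2.76 in SIGLEC12. The groups were apart by only 0.04. Its difference of 0.53 (SE 0.25, limma adjusted p = 0.181) was the smallest of the 8 tested genes, with an exact permutation p = 0.1. It came to 0.07 with overlap after rescaling (exact permutation p = 0.7) and to 0.18 against Control replicate 4 alone.

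Timp1 (ENSMUSG00000001131, chromosome X, 20870166 to 20874735) encodes a secreted inhibitor that binds most metalloproteinases but the membrane-type ones weakly. It was at 0.30 and 0.46 in Control and 1.08, 1.35 and 0.75 in SIGLEC12. All SIGLEC12 samples lay above both Control samples, also after rescaling. The difference was 0.68 (SE 0.23, limma adjusted p = 0.109), with p = 0.2 by exact permutation. It was 0.51 after rescaling and 0.60 against Control replicate 4 alone. Timp1 overlaps Syn1 on the other strand, and like Mmp2 and Mmp12 it passed the filter only through SIGLEC12 samples. Those 3 could be tested only by being high in SIGLEC12, and Mmp3 and Mmp9 were left out as low.

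**Figure D2:**
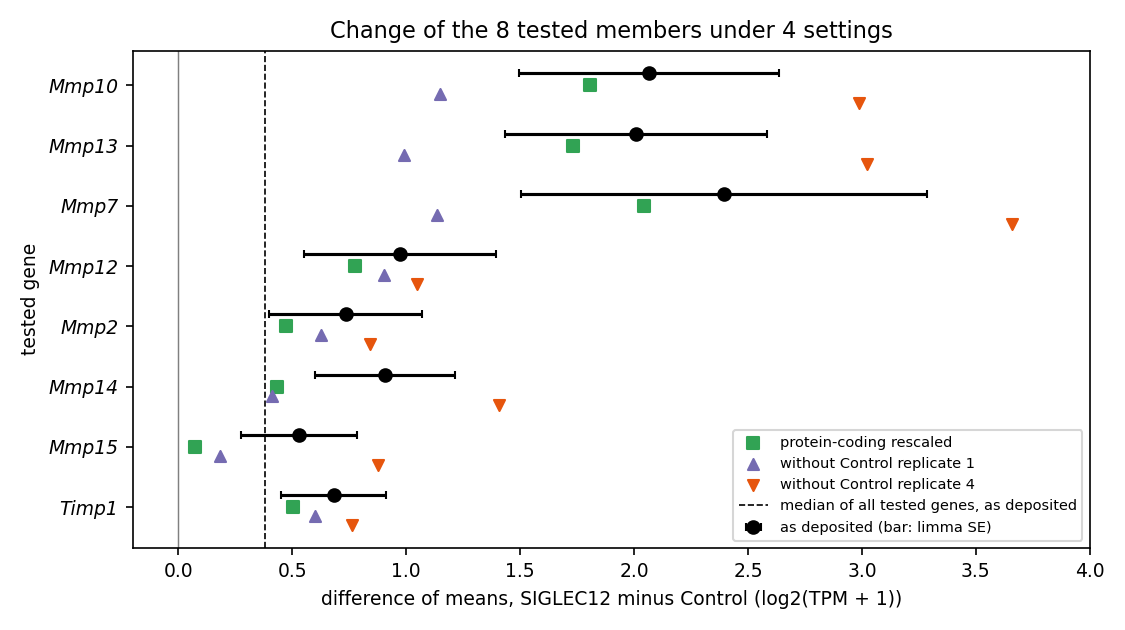
Difference of the group means (x axis, log2(TPM + 1), SIGLEC12 minus Control) of the 8 tested genes, with black bars for the limma SE of the deposited values and colored points for rescaled values and for fits without 1 Control sample. Every point lies above 0; Mmp10, Mmp13 and Mmp7 fall to 1.15, 0.99 and 1.13 without Control replicate 1 and reach 2.99, 3.02 and 3.66 without Control replicate 4.

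Counted over the 10 genes, Control and SIGLEC12 samples were apart for 8, all higher in SIGLEC12, and 7 of these were among the 8 tested genes, Mmp2, Mmp12 and Timp1 included. The same held for 54.1% of all tested genes, and 1.67% were apart in the lower direction. After rescaling, 4 of the 10 were apart (Mmp9, Mmp10, Mmp13 and Timp1), 3 of them tested, where 15.7% of all tested genes were apart higher and 16.8% lower. By the rule of an unadjusted p of at most 0.05 with at least 2-fold change, 3 of the 8 tested genes were higher (Mmp7, Mmp10 and Mmp13) and 0 lower, beside 3.97% and 0.445% of all tested genes. Rescaling left 2 higher, Mmp10 and Mmp13, and 0 lower, beside 0.368% and 1.37%, and 0 passed the adjusted rule there too (0%). The background itself turned over with the scale, from 410 genes higher and 46 lower as deposited to 38 higher and 142 lower. Without Control replicate 1, Mmp10 alone met the unadjusted rule, beside 1.38% of all tested genes. Without Control replicate 4, with the lone Control sample assumed to vary like the SIGLEC12 samples, Mmp7, Mmp10, Mmp13 and Mmp14 passed the adjusted rule, beside 9.31%.

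The make-up of the metalloproteinase RNA within a sample does not depend on scaling between samples. The summed TPM of the 10 genes was 8.10 and 28.7 in Control and 66.0, 73.4 and 40.2 in SIGLEC12. The 5 members of the chromosome 9 cluster took 8.81% and 48.4% of that sum in Control and 64.4%, 71.7% and 53.8% in SIGLEC12. The membrane-type pair Mmp14 and Mmp15 took 80.1% and 46.6% in Control and 27.9%, 23.6% and 39.6% in SIGLEC12. The groups did not overlap in either share. The shares add up to nearly the whole sum, so that one falls as the other grows. As deposited, the TPM of Mmp14 and of Mmp15 was itself higher in every SIGLEC12 sample than in Control. Unlike the shares, that comparison depends on scaling between samples. After rescaling the groups overlapped for both genes, with differences of 0.43 and 0.07. For both shares the step from Control replicate 1 to Control replicate 4 was larger than that from Control replicate 4 to the nearest SIGLEC12 sample. Mmp7 alone was 4.56% of the sum in Control replicate 1 and 52.7% in SIGLEC12 replicate 3.

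**Figure D3:**
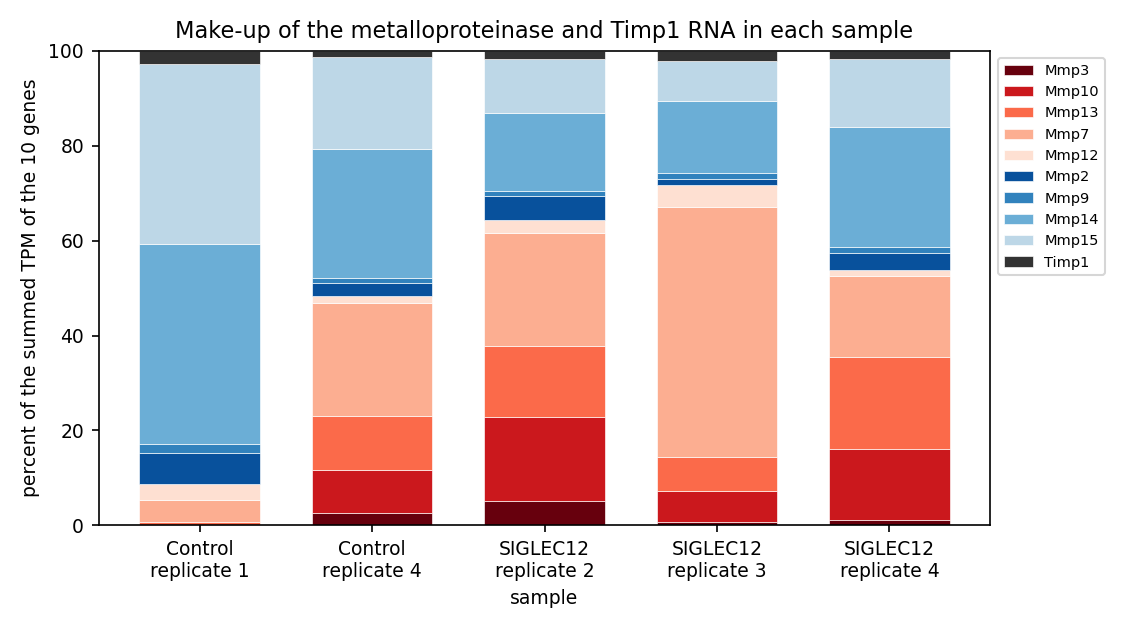
Share of each gene in the summed TPM of the 10 genes, in percent, 1 bar per sample (reds, chromosome 9 cluster; blues, other metalloproteinases; black, Timp1). The reds grow from 8.81% in Control replicate 1 and 48.4% in Control replicate 4 to between 53.8% and 71.7% in the SIGLEC12 samples.

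Ordered by mean level, which TPM allows between genes, Control ran Mmp14, Mmp15, Mmp7, Mmp13, Mmp10, Mmp2, Mmp12, Mmp3, Timp1 and Mmp9. In SIGLEC12 the order was Mmp7, Mmp14, Mmp13, Mmp10, Mmp15, Mmp2, Mmp12, Mmp3, Timp1 and Mmp9. The last 5 places were the same in both. Only Mmp2 and Mmp12 in Control, and Mmp14 and Mmp13 and also Mmp15 and Mmp2 in SIGLEC12, were neighbors whose sample ranges did not overlap.

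Ratios to Timp1 set metalloproteinase RNA against Timp1 RNA within a sample. Timp1 was low, at 0.23 and 0.38 TPM in Control replicates 1 and 4, so the ratios rest on a small denominator. Since TIMP1 binds the membrane-type members weakly, the ratios of Mmp14 and Mmp15 compare RNA levels only. Mmp15 to Timp1, as log2 of the TPM ratio, was 3.75 and 3.89 in Control and 2.76, 2.01 and 3.08 in SIGLEC12. It was lower in every SIGLEC12 sample, with a difference of -1.21 (exact permutation p = 0.1), and of -1.28 against Control replicate 4 alone. Mmp14 to Timp1 was 3.91 and 4.38 in Control and 3.30, 2.84 and 3.89 in SIGLEC12, a difference of -0.80 (exact permutation p = 0.2), with SIGLEC12 replicate 4 only just below Control replicate 1. Mmp9 to Timp1 stayed between -0.68 and -0.37 in all 5 samples, and the groups overlapped.

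For Mmp10 the log2 ratio to Timp1 was -4.59 and 2.80 in Control and 3.39, 1.64 and 3.12 in SIGLEC12. Control replicate 1 stood far below the other 4, and Control replicate 4 lay among the SIGLEC12 samples. The difference of 3.61 (exact permutation p = 0.2) was therefore set by that sample, and against Control replicate 4 alone it was -0.08. The same turn in sign occurred for Mmp13, from 2.49 to -0.30, for Mmp7, from 1.48 to -0.27, and for Mmp3, from 2.15 to -1.17. Mmp2 and Mmp12 had differences of -0.47 and 0.22, with overlapping groups.

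**Figure D4:**
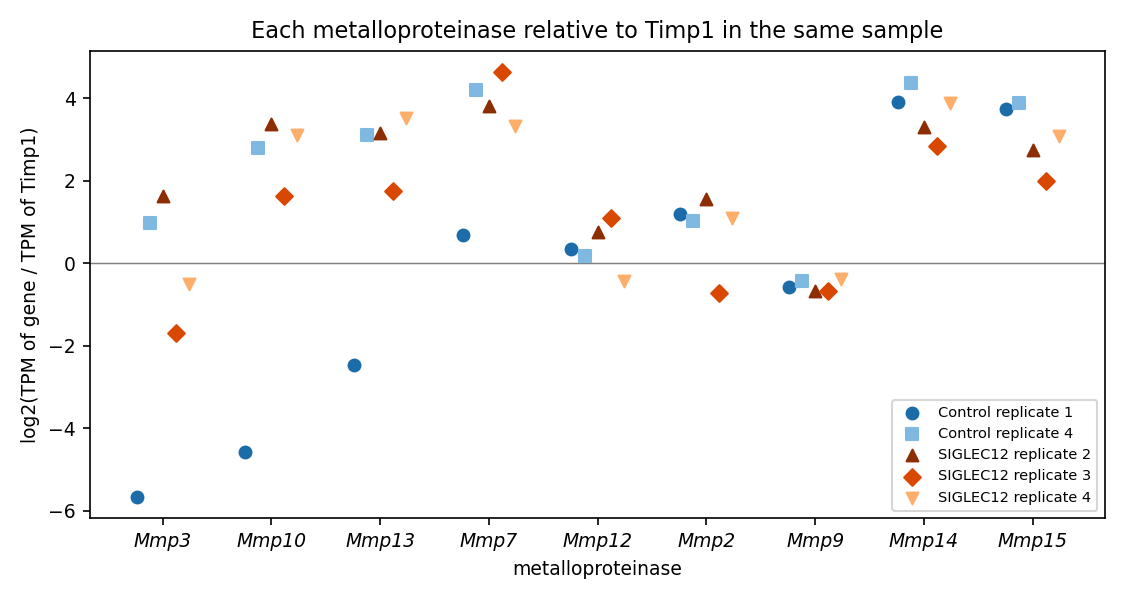
Log2 of the TPM ratio of each metalloproteinase to Timp1 (y axis) in each of the 5 samples. Mmp14 and Mmp15 are lower in all SIGLEC12 samples than in both Control samples, whereas Mmp3, Mmp10, Mmp13 and Mmp7 are set apart by Control replicate 1 alone, at -5.66, -4.59, -2.47 and 0.70.

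Among the 10 genes, the profiles over the 5 samples, each centered on its own mean, were closest between Mmp9 and Timp1 (root mean square difference 0.116 on the log2 scale) and between Mmp10 and Mmp13 (0.188). Over 9208 other protein-coding genes, the nearest to Mmp7 were the skeletal muscle actin gene Acta1 (0.197), the keratin gene Krt36 (0.261) and the matrix protein gene Mgp (0.317). Nearest to Mmp10 were Il1rl1, which encodes the receptor of interleukin-33 (0.215), the proteoglycan gene Dcn, also one of the fibroblast markers (0.374), and the galectin gene Lgals9 (0.374). Il1rl1 (0.236) and Lgals9 (0.295) were also nearest to Mmp13, followed by Retnlb, a goblet cell gene (0.332). These are descriptions over 5 samples that share Control replicate 1 as their lowest point.

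Genes of the same pathway were taken from lists of known function, 62 genes of which 33 were tested. Among the 14 other metalloproteinase genes 0 reached the filter, the highest being Mmp28 with a mean of 0.97 over the samples. Of the 33 tested, 29 had a higher mean in SIGLEC12 (87.2% of all tested genes did), and 27 did after rescaling (51.1%). As deposited 19 were apart higher and 2 lower, beside 54.1% and 1.67% of all tested genes, and after rescaling 7 and 4 were, beside 15.7% and 16.8%. By the unadjusted rule with 2-fold change 6 were higher and 0 lower (3.97% and 0.445% of all tested genes), and after rescaling 1 higher and 2 lower (0.368% and 1.37%). Their median difference was 0.81 as deposited and 0.43 after rescaling. In limma 0 passed the adjusted rule. An unadjusted limma p under 0.05, in either direction, was reached by 16 of the 33, beside 3543 of all 10338 tested genes. After rescaling 5 reached it, beside 1110 of all 10338.

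By group, matrix substrates had the highest median, 1.11 over 11 tested genes. All 11 had a higher mean in SIGLEC12 (87.2% of all tested genes did). The groups were apart for 6, near the share of 54.1% over all tested genes, and 3 passed the unadjusted rule (3.97%). After rescaling the median was 0.64, and all 11 still had a higher mean (51.1%). Then 3 were apart higher and 1 passed that rule, beside 15.7% and 0.368% of all tested genes. Col4a1, a type IV collagen chain of basement membrane, was at 1.22 and 1.87 in Control and 3.72, 2.53 and 2.94 in SIGLEC12, a difference of 1.52 (SE 0.38, limma adjusted p = 0.0974). It was above both Control samples in every SIGLEC12 sample and differed by 1.12 after rescaling. Further genes whose groups did not overlap as deposited were the fibrillar collagen gene Col3a1 (1.44), Sparc (1.27), which encodes a collagen-binding protein, and Lamb3 (1.11), a chain of epithelial laminin. After rescaling Col3a1 and Sparc stayed apart, at 0.997 and 0.82, and Lamb3 overlapped, at 0.62.

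Of the 6 tested cysteine cathepsins, lysosomal proteases, 5 were apart higher and 2 passed the unadjusted rule, beside 54.1% and 3.97% of all tested genes. Their median was 0.82. After rescaling 3 were apart and 0 passed, beside 15.7% and 0.368% of all tested genes. Then 1 cathepsin had an unadjusted limma p under 0.05, and the median was 0.31. The plasminogen system and proprotein convertases, which can activate proenzymes, had 4 of 8 apart higher and 1 lower, beside 54.1% and 1.67% of all tested genes. After rescaling they had 1 apart higher and 1 lower, beside 15.7% and 16.8%. The 2 tested inhibitors, Timp2 and Timp3, differed by 0.52 and 1.01, with the groups apart for Timp3, but by 0.20 and 0.61 after rescaling, with overlap for both. ADAM and ADAMTS proteases had a median of 0.11 as deposited, beside 0.38 over all tested genes, and of -0.32 after rescaling, beside 0.01. Of the 6 tested, 3 were apart higher and 1 lower, beside 54.1% and 1.67% of all tested genes. After rescaling 0 were apart higher and 3 lower, beside 15.7% and 16.8%. The lower gene on both scales, Adam28, was at 2.17 and 2.09 in Control and 1.56, 1.44 and 1.24 in SIGLEC12, a difference of -0.72 (limma adjusted p = 0.0974) and of -1.12 after rescaling. Serpinb2, an inhibitor of urokinase, was the other lower gene at -0.65. Both were lower in every SIGLEC12 sample.

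Marker lists of other cell types varied over the same samples. Fibroblast markers had a higher mean in SIGLEC12 for 8 of 8 genes and columnar epithelium markers for 8 of 8, while squamous markers did for 0 of 7. The mean was also higher for 8 of 8 macrophage, 6 of 6 endothelial, 5 of 6 smooth muscle and 5 of 6 neutrophil markers. All 5 T cell and all 5 B and plasma cell markers were higher too. These are values as deposited, where 87.2% of all tested genes had a higher mean. The squamous sum of Control replicate 4, 447 TPM, lay within the SIGLEC12 range of 297 to 736. Endothelial markers summed to 1.10 and 1.15 TPM in Control and 5.04, 2.27 and 2.999 in SIGLEC12, and smooth muscle markers to 45.3 and 52.0 against 112, 45.7 and 48.5. T cell markers summed to 0.289 to 0.736 TPM and B and plasma cell markers to 0.137 to 1.48. No marker was at 0 in all samples. The part of these lists in the metalloproteinase differences was not tested.

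**Figure D5:**
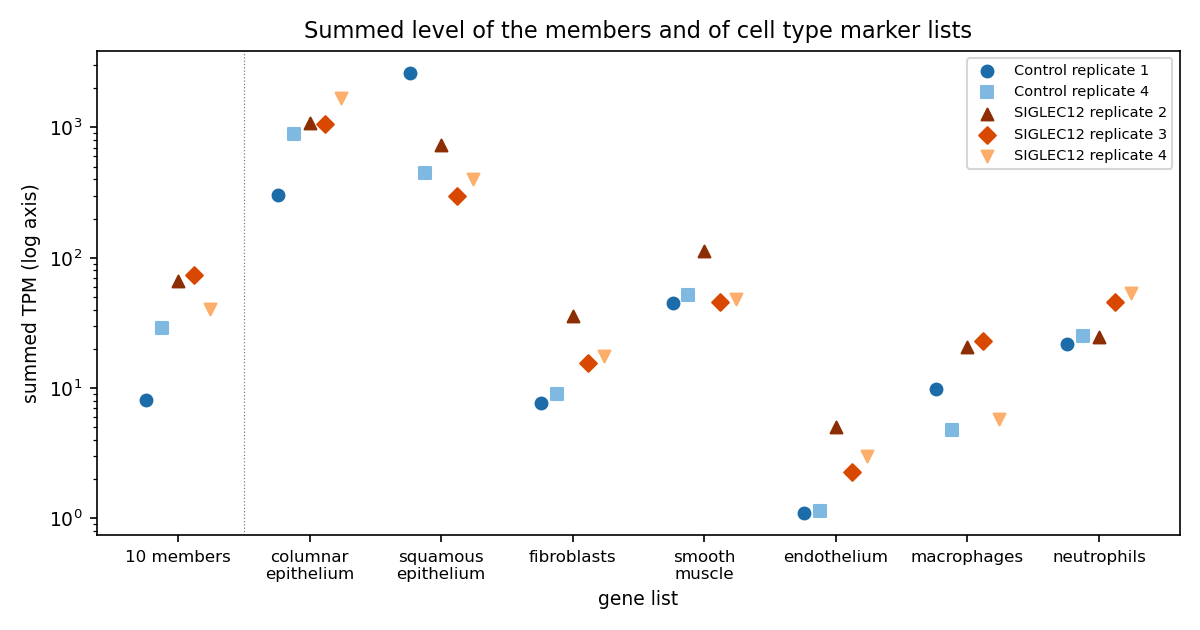
Summed TPM (log axis) of the 10 genes and of 7 cell type marker lists in each sample. Control replicate 1 is lowest for the 10 genes (8.10) and for columnar epithelium (304) and highest for squamous epithelium (2629).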

How the data were processed

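RNA from 5 mouse colon tumors was sequenced. The authors deposited log2 values, log2(TPM + 1), for 1 row per Ensembl gene; back-transformed columns summed to between 999999 and 1000001, and TPM (transcripts per 1000000) keeps no read depth, so depth per sample is unknown. The submitters' processing notes name kallisto 0.45.0 and GRCm38. The labels describe total RNA libraries and the study's methods an mRNA kit, a human reference and technical libraries; whether columns average libraries is not stated, so p-values measure the spread between these samples. GENCODE M21 held 98.29% of the gene identifiers and gave positions.

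Genes with TPM of at least 1 in at least 2 samples (10338) entered a linear model in limma 3.58.1, run under R 4.3.3 (lmFit, eBayes with trend, no covariates, Benjamini-Hochberg adjustment); the fit was checked on simulated data. Calls required at least 2-fold change (a difference of at least 1 in log2(TPM + 1)). They also required an adjusted p under 0.05 or, as the study's threshold, an unadjusted p of at most 0.05. Single values had an exact two-sided permutation test over samples (smallest p 0.1). Rescaling set the protein-coding total equal in all samples. Alternatives were a pseudocount of 0.1, no filter or a TPM minimum of 5, median-ratio and quantile scaling, no trend, and leaving out each sample. Members, gene lists and marker lists were chosen with earlier results of these data known. Pathway genes named were the 5 largest changes per direction whose groups did not overlap (1 is not reported here), and 3 nearest profiles were named for the 3 members with the widest range; genes named beyond these (Timp2, Timp3, Mmp28 and genes overlapping a member) were chosen after their values were seen.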

Additional observations from a re-analysis of the deposited data

How the results depend on the processing

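No paired analysis was possible because just 1 number, replicate 4, occurred in both groups. Dropping the filter or the trend, or raising the TPM minimum to 5, leaves a gene's difference of means unchanged, so its sign could not turn there. For the 7 tested members whose groups did not overlap, leaving out a sample or a pseudocount of 0.1 could not turn the sign either. Many of the signs counted below were therefore fixed in advance. The share of all genes with a higher mean in SIGLEC12 ran from 50.1% under median-ratio scaling to 90.6% with the TPM minimum of 5. In 93 of 93 fitted differences of members under 12 alternatives the difference stayed above 0, and 4 of the 93 passed the adjusted threshold, all without Control replicate 4, where the lone Control sample is assumed to vary like the SIGLEC12 samples. Members called higher by the unadjusted rule with 2-fold change numbered 6 with a pseudocount of 0.1, and 1 to 4 when a sample was left out; by the adjusted rule they numbered 0 to 4. The median difference of the tested members was 1.69 with the pseudocount of 0.1 and 2.01 with the TPM minimum of 5, which leaves 5 members. Pathway genes called by the unadjusted rule numbered 1 higher and 2 lower under each of protein-coding, median-ratio and quantile scaling, and 2 to 16 higher when a sample was left out; by the adjusted rule 0 to 7 were higher. Of all tested genes, the unadjusted rule called 1087 higher with the pseudocount of 0.1, 38, 46 and 45 higher and 142, 139 and 131 lower under those 3 scalings in the same order, 19 lower with the TPM minimum of 5, and 143 to 1366 higher and 51 to 146 lower when a sample was left out. By the adjusted rule 0 to 962 were higher and 0 to 97 lower when a sample was left out. The cause of these shifts was not tested. Depth is unknown, so counting error could not be given for low genes such as Mmp9.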
